A study of Mus musculus with 12 samples.

Results

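The genes described here are 10 transcripts of microglia, the resident macrophages of the brain: the receptors Trem2 and Csf1r, the adaptors Tyrobp and Fcer1g, the complement chains C1qa, C1qb and C1qc, and the marker genes Aif1, Cd68 and Itgax. They were chosen by name, and every array probe annotated with one of these names was taken. They are 10 of 19694 named genes on the array, and this gave 16 probes of 41174 other than controls. Of these 16, 8 were bright enough to be tested, among 12987 such probes on the array.

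RNA came from neurons cut by laser from Nissl-stained sagittal brain sections 12 µm thick, 500 neurons per brain region. The mutants were Naglu-/- mice, which lack alpha-N-acetylglucosaminidase, a lysosomal enzyme of heparan sulfate breakdown, and model Sanfilippo syndrome type B. The controls were Naglu+/- littermates, so they too carried 1 disrupted allele. All mice were C57BL/6 females aged 2 months, and the regions were the medial (MEC) and the lateral (LEC) entorhinal cortex. Each region had 3 pairs of a mutant and a control, and each pair was hybridised on 2 dual-colour Agilent arrays with the dyes exchanged, 12 arrays in all. Whether an MEC pair and the LEC pair with its number share their mice is not stated in the labels.

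TREM2 is a surface receptor of microglia that binds lipids and lipoproteins. It has no signalling tail of its own and works through the adaptor DAP12, the product of Tyrobp, which recruits the kinase SYK. Fcer1g encodes a related adaptor that serves Fc receptors. CSF1R is the receptor on which microglia depend for survival. C1qa, C1qb and C1qc encode the chains that assemble into C1q, the recognition molecule that starts the classical complement pathway and, in brain, is made chiefly by microglia. Aif1 encodes IBA1, Cd68 a lysosomal membrane protein of phagocytes, and Itgax the integrin CD11c. Microglia were not the captured cells, so transcripts made by microglia could enter these extracts only as far as the laser took in neighbouring cells or processes. Which cells gave the signal of these probes was not tested.

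The promoters of the genes on which the results turn most, Trem2 and C1qc, are shown first, beside that of C1qb, whose ratio did not follow them. RefSeq promoters of build GRCm38.p6 were at hand for 7 of the 10 genes, taken here as the 250 bases before the transcript start. Capitals mark GAGGAA or its reverse complement TTCCTC, letters that PU.1, an Ets factor and macrophage regulator, can bind. Shorter stretches within them, such as GGAA, were not marked or counted. Each sequence reads 5′ to 3′ on the strand of its gene.
Trem2, chr17:48346151-48346400, plus strand: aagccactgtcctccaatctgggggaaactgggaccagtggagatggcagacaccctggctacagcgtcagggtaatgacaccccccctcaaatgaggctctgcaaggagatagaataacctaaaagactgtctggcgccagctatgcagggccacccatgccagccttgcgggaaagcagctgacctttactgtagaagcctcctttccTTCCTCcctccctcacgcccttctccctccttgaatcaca
C1qc, chr4:136892915-136893164, minus strand: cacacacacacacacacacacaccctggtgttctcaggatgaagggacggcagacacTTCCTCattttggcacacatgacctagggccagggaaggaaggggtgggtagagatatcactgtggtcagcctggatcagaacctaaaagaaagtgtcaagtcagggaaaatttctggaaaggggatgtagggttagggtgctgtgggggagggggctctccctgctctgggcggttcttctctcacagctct
C1qb, chr4:136886201-136886450, minus strand: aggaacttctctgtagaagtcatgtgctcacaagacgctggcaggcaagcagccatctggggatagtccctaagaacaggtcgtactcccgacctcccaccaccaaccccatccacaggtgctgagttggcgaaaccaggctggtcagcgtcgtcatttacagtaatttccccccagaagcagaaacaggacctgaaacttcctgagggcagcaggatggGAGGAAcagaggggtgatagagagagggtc
The motif began at position -40 relative to the transcript start in Trem2, at -193 in C1qc and at -30 in C1qb. On either strand, these letters occurred in the promoters of 5 of the 7 genes (Trem2, C1qb, C1qc, Aif1 and Cd68) and were not in the windows of Fcer1g and Itgax. Of 32851 RefSeq promoters of this length, 23.3% held them. The match describes letters only, and C1qb held them as Trem2 and C1qc did.

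Before any values, a conflict in the direction of the ratios has to be stated. The authors' value table gave replicate 2 of both regions the sign opposite to its labelled dyes, on 4 arrays, and matched 5 of the 6 LEC scanner files to other LEC samples than those they were filed under. The values below follow the table, so the direction of pair 2 is not settled in either region. Pairs 1 and 3 have the same direction under the table and the labelled dyes, although the LEC files among them were assigned by the table. The main results on mutant against control are therefore set beside values without pair 2 and with pair 2 turned to the labelled dyes. Levels of mutants and controls in each extract are given in the table's direction. Naglu itself did not help to check the labels: its 2 probes were dim, well above background in 0 and 12 of 24 readings, with mean log2 ratios of mutant over control of -0.01 ± 0.03 and 0.02 ± 0.05 (SD, n = 6 pairs).

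Signal set how far these genes could be read. A reading is 1 probe in 1 dye on 1 array, and the scanner software marks whether it lies well above background. Over the whole array 48.2% to 67.9% of spots passed this mark in Cy3 and 14.8% to 30.4% in Cy5. To be tested, a probe had to pass in 4 or more of the 6 readings that a genotype has in a region. The brightest probe of Trem2 (chromosome 17, 47817764 to 47817823 in build mm8) passed in 24 of 24 readings, with a median signal of 3.39 times the local background in Cy3 and 3.02 times in Cy5. The probe of Tyrobp (chromosome 7) passed in 23, that of C1qc (chromosome 4, 136161927 to 136161986) in 23 and that of C1qb (chromosome 4, 136152739 to 136152798) in 18. The kept probes of Csf1r, Aif1, Fcer1g and Itgax passed in 24, 23, 23 and 21 readings. All 8 kept probes thus stood above background in each region and each genotype, and none was saturated.

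The other 8 probes were dim. C1qa passed in 3 of 24 readings and Cd68 in 9, so neither gene was measured by any tested probe. The dim probes of Trem2, Aif1, Fcer1g and Itgax passed in 8, 1, 12 and 1 readings, and those of Csf1r in 11 and 9. None of the 8 dim probes passed in any Cy5 reading, and the filter could not be met from Cy3 readings alone. In Cy3 the dim Fcer1g probe passed on 12 of 12 arrays and the better of the dim Csf1r probes on 11. Their mean ratios over both regions lay between -0.003 and 0.073 on the log2 scale, the highest in the dim Trem2 probe, and no fold change is given for them.

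**Figure D1:**
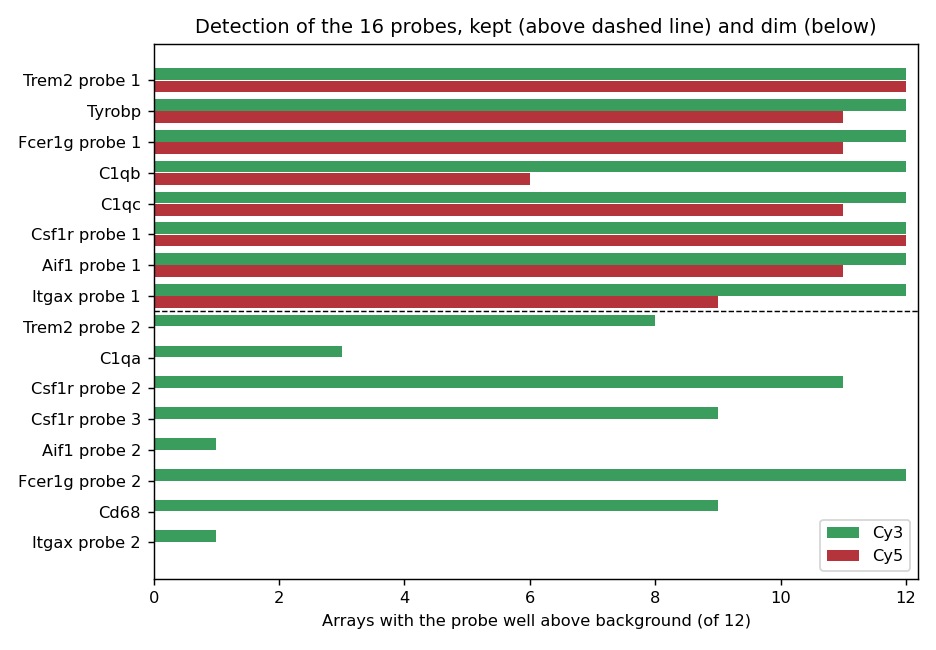
Number of the 12 arrays on which each of the 16 probes was well above background, in Cy3 (green) and Cy5 (red). The 8 kept probes stand above the dashed line; below it, Cy5 bars are missing because 0 of 12 arrays passed, and C1qa passed on 3 arrays in Cy3.

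Trem2 and its adaptor Tyrobp, together with the complement chain C1qc, had higher signal in Naglu-/- than in Naglu+/- extracts in 6 of 6 pairs when the ratios followed the value table. The mean differences were 1.31-fold for Trem2, 1.21-fold for C1qc and 1.13-fold for Tyrobp over both regions. None of them passed the test across all probes. The other 5 measured genes, Fcer1g, C1qb, Csf1r, Aif1 and Itgax, had mean differences of 1.05-fold or less in either direction. Intensities below are normalised values that include an added constant of 50, which pulls ratios of dim probes towards 1.

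In MEC, the Trem2 probe read 125, 136 and 132 in the mutant extracts of pairs 1 to 3, against 90.6, 91.6 and 119 in their controls. In LEC it read 112, 132 and 105 in mutants, against 93.3, 93.5 and 79.5 in controls. The mutant and control extracts did not overlap in either region, and MEC control 3 was the control nearest to the mutants. The log2 ratio averaged 0.39 ± 0.22 (SD, n = 3 pairs) in MEC and 0.39 ± 0.12 in LEC. Limma's test gave 0.391 over both regions (SE 0.066, 95% interval 0.24 to 0.55), with an unadjusted p of 0.000558, the fifth smallest of 12987 probes, and an adjusted p of 0.921.

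Tyrobp read 92.6, 93.0 and 98.3 in MEC mutants, against 82.7, 79.1 and 93.7 in MEC controls. The LEC values were 88.7, 92.6 and 91.8 in mutants, against 79.3, 86.2 and 73.8 in controls. Each mutant lay above its own control, while the groups as a whole overlapped in MEC, where control 3 exceeded mutants 1 and 2, and did not overlap in LEC. The ratio over both regions was 0.17 (SE 0.05, interval 0.06 to 0.29), with an unadjusted p of 0.00887 and an adjusted p of 1 by limma.

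Fcer1g, the adaptor of Fc receptors, showed no such order. It read 106, 106 and 89.0 in MEC mutants, against 113, 95.3 and 90.2 in MEC controls. LEC mutants gave 104, 106 and 93.8, against 103, 100 and 87.8 in LEC controls. The genotypes overlapped in both regions, and the ratio over both was 0.04 (interval -0.08 to 0.15, adjusted p = 1 by limma).

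Of the C1q chains, which form 1 protein and whose genes lie next to each other on chromosome 4, only C1qb and C1qc were measured, and their ratios differed. C1qc read 101, 99.3 and 116 in MEC mutants, against 89.6, 96.4 and 91.9 in MEC controls. In LEC it read 115, 140 and 103 in mutants, against 97.8, 94.0 and 82.5 in controls. The genotypes did not overlap in either region, with the narrowest gap in MEC pair 2 and the highest value in LEC mutant 2. The C1qc ratio averaged 0.18 ± 0.15 (SD, n = 3 pairs) in MEC and 0.38 ± 0.18 in LEC. Over both regions it was 0.28 (SE 0.06, interval 0.13 to 0.43), with an unadjusted p of 0.00291 and an adjusted p of 1 by limma.

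C1qb read 82.4, 80.1 and 72.9 in MEC mutants, against 76.1, 72.7 and 83.4 in MEC controls. The LEC extracts read 73.2, 75.2 and 82.6 in mutants, against 76.1, 76.3 and 71.7 in controls. Its mutants were higher in MEC pairs 1 and 2 and LEC pair 3 and lower in the other 3 pairs. The ratio over both regions was 0.03 (interval -0.12 to 0.18, adjusted p = 1 by limma). The difference between the 2 chains was not tested, and C1qb was the dimmer by readings above background, 6 of 12 in Cy5 against 11 of 12 for C1qc.

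Csf1r, the growth factor receptor, read 86.5, 91.9 and 81.0 in MEC mutants, against 86.2, 81.8 and 91.5 in MEC controls. In LEC it read 88.7, 105 and 86.2 in mutants, against 94.4, 95.9 and 98.0 in controls. The genotypes overlapped in both regions, and the ratio over both was -0.02 (interval -0.18 to 0.13). Pair 2 changed the size of this mean but not its sign. Mutants were higher in pair 2 of each region. Of the other 4 pairs, they were higher in MEC pair 1 alone, by 0.006 on the log2 scale. Without pair 2 the mean was -0.11 ± 0.09 (SD, n = 4 pairs), and with pair 2 turned to the labelled dyes it was -0.12 over 6 pairs.

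The marker genes gave no common direction. Aif1 read 93.8, 99.2 and 85.1 in MEC mutants, against 106, 79.0 and 80.7 in MEC controls. Its LEC values were 90.4, 98.0 and 88.2 in mutants, against 84.4, 96.0 and 85.8 in controls. The mutant was above its control in 5 of 6 pairs and well below it in MEC pair 1, and the ratio over both regions was 0.07 (interval -0.09 to 0.22). Itgax read 66.5, 73.6 and 73.0 in MEC mutants, against 67.4, 76.1 and 72.4 in MEC controls. In LEC it read 65.7, 85.7 and 70.1 in mutants, against 86.7, 87.9 and 65.4 in controls. LEC pair 1 stood apart with a ratio of -0.40, the other 5 pairs lay between -0.05 and 0.10, and the ratio over both regions was -0.07 (interval -0.23 to 0.10).

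**Figure D2:**
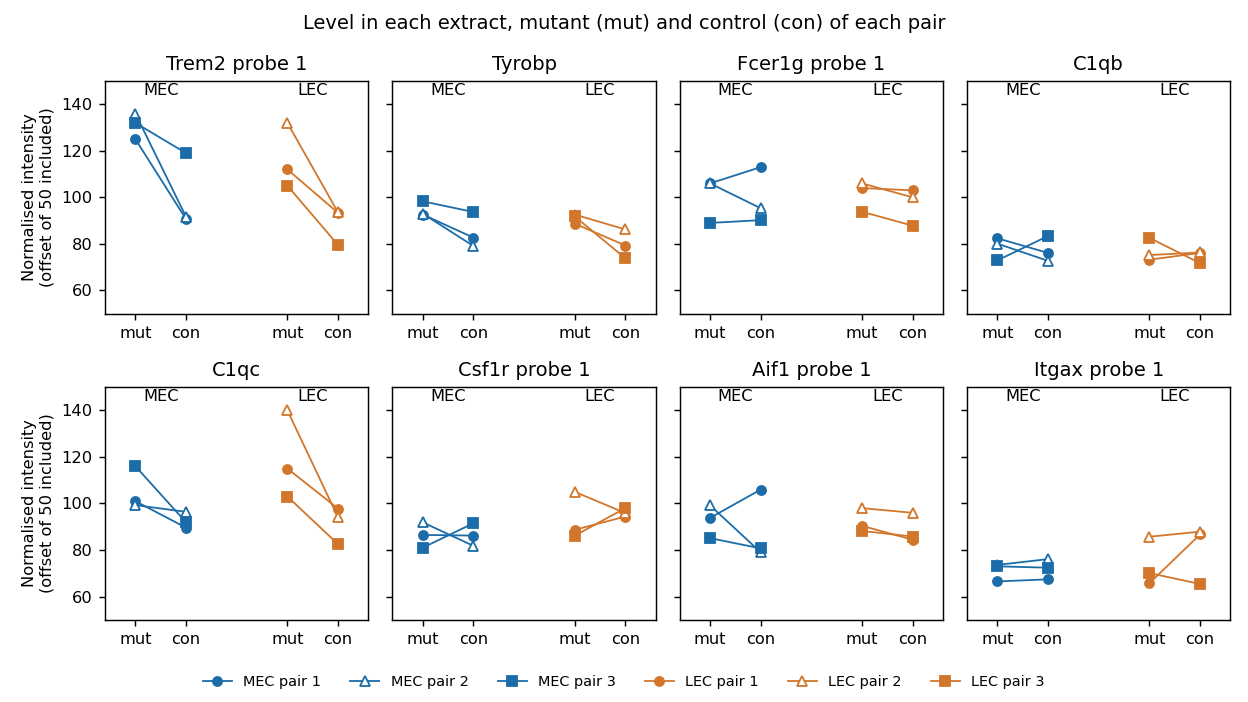
Normalised intensity (offset of 50 included) of the 8 kept probes in each extract, mutant left of control, with a line per pair; MEC in blue, LEC in orange, and open triangles for pair 2, whose direction is not settled. In the table's direction the mutant point stands above its control in every pair for Trem2, Tyrobp and C1qc, and the order varies between pairs for the other 5 genes.

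Counted over the members, 2 of 8 kept probes (Trem2 and C1qc) had mutant extracts above control extracts without overlap in MEC, where 1.87% of all kept probes did. In LEC this held for 3 of 8 (Trem2, Tyrobp and C1qc), against 4.2% of all. The ratio was above 0 in 6 of 6 pairs for 3 of 8, against 1.15% of all. An unadjusted p under 0.05 with a ratio above 0 over both regions was found for the same 3 of 8, against 1.33% of all. At an adjusted p under 0.05, limma called 0 of 8 members in MEC, in LEC, over both regions and in the difference between the regions, as it did 0% of the 12987 probes in each of these. Unadjusted, 135 probes had a p under 0.05 in MEC, 198 in LEC, 275 over both regions and 71 in the difference. The median ratio of the 8 members over both regions was 0.05, against 0.00 for all kept probes, and 6 of 8 were above 0, against 50.9% of all. The members were chosen with earlier results of these data known, so these shares describe them and do not test them.

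These shares rest on the direction of pair 2. Without it, the same 3 of 8 had ratios above 0 in 4 of 4 pairs, against 9.64% of all, and an unadjusted p under 0.05 with a ratio above 0, against 2.9% of all. With pair 2 turned, 0 of 8 were above 0 in 6 of 6 pairs, against 3.61% of all, and 0 of 8 had an unadjusted p under 0.05 with a ratio above 0, against 6.24% of all. The mutants then lay above the controls without overlap for 0 of 8 in MEC, against 9.9% of all, and for 0 of 8 in LEC, against 6.2%. The median of the 8 members was 0.01 without pair 2, with 5 of 8 above 0, and -0.02 with it turned, with 3 of 8 above 0. All kept probes then had a median of 0.02 in either case, and 59.2% and 61.8% of them were above 0. Turning pair 2 thus took the members out of these shares while the shares over all probes became larger.

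**Figure D3:**
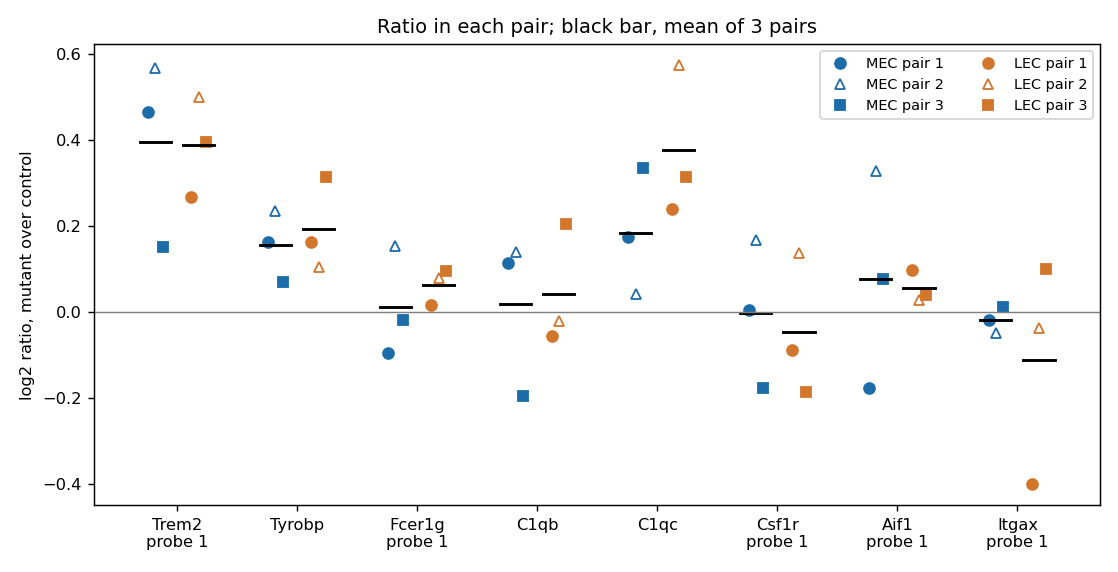
Log2 ratio of mutant over control in each pair for the 8 kept probes, MEC in blue and LEC in orange, with pair 2 as open triangles and the mean of 3 pairs as a black bar. As the table directs pair 2, all 6 points lie above 0 for Trem2, Tyrobp and C1qc, and points of each of the other genes lie on both sides of 0.

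The direction of pair 2 decided how large these means were. Without pair 2 of both regions, Trem2 averaged 0.32 ± 0.14 (SD, n = 4 pairs), C1qc 0.27 ± 0.07 and Tyrobp 0.18 ± 0.10, each above 0 in 4 of 4 pairs, with an adjusted p of 0.797 for each by limma. With pair 2 turned to the labelled dyes, the means over 6 pairs were 0.04 for Trem2, 0.07 for C1qc and 0.06 for Tyrobp. With the LEC files as filed as well as the dyes as labelled, they were 0.05, 0.19 and 0.02. When pair 2 was turned, the genotypes overlapped in both regions for all 3 genes. Pair 2 had the highest Trem2 ratio of its region, 0.57 in MEC and 0.50 in LEC, so turning it removed most of the mean. Single arrays followed the same pattern: Trem2 was above 0 on 11 of 12 arrays as the table directs them and on 7 when turned, C1qc on 11 and 9, and Tyrobp on 9 and 7.

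**Figure D4:**
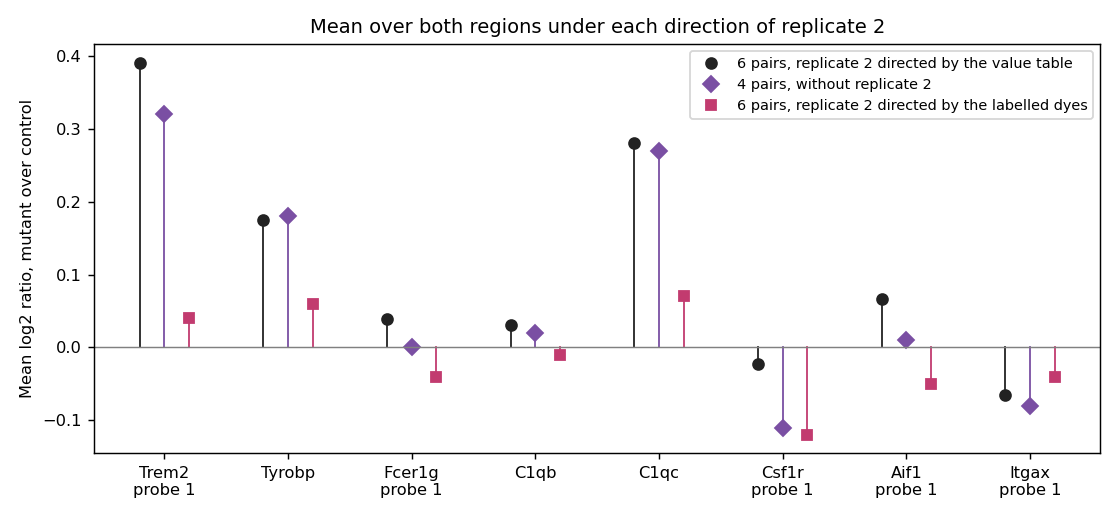
Mean log2 ratio of mutant over control over both regions for the 8 kept probes, with pair 2 directed by the value table (circles), left out (diamonds) and directed by the labelled dyes (squares). Trem2 stands at 0.39, 0.32 and 0.04 under these choices. Fcer1g, C1qb and Aif1 lie below 0 under the labelled dyes, and Csf1r and Itgax lie below 0 under all 3 choices.

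Over the 12 extracts, each probe's level was correlated with the mean of the other 7 members. This correlation is the same whichever extract of a pair is called mutant, and it was 0.65 for Tyrobp, 0.62 for Trem2 and 0.62 for C1qc. It was 0.37 for Fcer1g, 0.36 for Aif1, 0.23 for C1qb, 0.19 for Itgax and 0.18 for Csf1r. The extracts share arrays in pairs and a common normalisation, so these values are descriptions.

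Among genes outside the list, those whose levels were most like the mean of the 8 kept members over the 12 extracts were Syngr1, a synaptic vesicle protein (r = 0.855), Rgs10, a regulator of G protein signalling (0.803), Prodh, proline dehydrogenase (0.791), H2-K1, a class I histocompatibility chain (0.789), and Ptpn3, a tyrosine phosphatase (0.774). Their ratios of mutant over control over both regions were 0.19, 0.16, 0.06, 0.34 and 0.04 on the log2 scale, and 0.02, 0.03, -0.05, 0.09 and 0.01 with pair 2 turned. They were picked as the highest of all named probes.

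The size of the ratios also moved with the background treatment. From the scanner's own processed signals, without the added constant, the means over both regions were 0.80 for Trem2 (1.74-fold), 0.65 for C1qc (1.57-fold) and 0.51 for Tyrobp (1.43-fold). In the table's direction, each was again above 0 in 6 of 6 pairs. The adjusted p was 1 for all 3, and over every alternative run it lay between 0.224 and 1 for Trem2, between 0.174 and 1 for C1qc and between 0.775 and 1 for Tyrobp. The order Trem2, C1qc, Tyrobp was thus kept while the fold changes were larger. The p-values measure the spread between these pairs, whose number, 3 per region, limits the precision. Those over both regions treat the 6 pairs as independent, although MEC and LEC pairs may share mice.

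The mutant effect was set against itself between the regions. For Trem2 the MEC ratio minus the LEC ratio was 0.01 (interval -0.30 to 0.32), for Tyrobp -0.04 (-0.27 to 0.19) and for C1qc -0.19 (-0.49 to 0.10). The adjusted p was 1 by limma for each, so a difference between regions was not detectable, and for Tyrobp and C1qc the intervals hold differences as large as the effect itself. Without LEC pair 2, the LEC mean of C1qc was 0.277, that of Trem2 0.332 and that of Tyrobp 0.239. LEC pair 2 also stood apart in cell type markers, with mean ratios of 0.58 for 6 astrocyte markers and 0.78 for 5 markers of blood, choroid plexus and meninges, against -0.25 to 0.25 and -0.49 to 0.13 in the other pairs. Of the latter, Dcn was at 2.42, Igf2 at 1.12 and Ttr at 0.50, while Hba-a1 was at -0.09 and Col1a1 at -0.03. Neuronal markers were also highest in that pair, at 0.49 for 6 inhibitory and 0.23 for 4 excitatory markers. Oligodendrocyte and vessel markers, at 0.24 and 0, were not. All these signs are in the table's direction and reverse if pair 2 is turned. The part of these markers in the C1qc ratio of that pair was not tested.

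Levels of the members in MEC and LEC, averaged over both genotypes, differed little. The Trem2 log2 intensity averaged 6.83 ± 0.12 in MEC and 6.66 ± 0.14 in LEC (SD, n = 3 pairs), a difference of 0.17 (adjusted p = 0.186 by limma). For Csf1r it was 6.43 ± 0.01 in MEC and 6.56 ± 0.08 in LEC, a difference of -0.13 (adjusted p = 0.104). The other 6 members differed by -0.10 to 0.08. None of the 8 passed, while 24.3% of all 12987 probes did, and the 2 regions were scanned on different days, so region and scan day cannot be told apart. This comparison holds mutant and control in equal parts and does not depend on the direction of pair 2.

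In extracts of captured neurons, more microglial cells or processes taken in and more RNA per cell cannot be told apart, and the cells of origin of these transcripts were not tested. Of 10 microglial markers, 7 were measured. Their summed intensity was 889 to 960 in MEC mutants, against 727 to 807 in MEC controls, and 672 to 1060 in LEC mutants, against 648 to 761 in LEC controls. In the table's direction the gap in MEC came with Ctss, the lysosomal protease cathepsin S: without it the sums were 546 to 571 in MEC mutants, against 505 to 575 in MEC controls, and 473 to 605 in LEC mutants, against 488 to 555 in LEC controls. With pair 2 turned, the sums of the 7 markers overlapped in MEC, at 807 to 960 in mutants, against 727 to 889 in controls, and in LEC, at 662 to 892 in mutants, against 648 to 1060 in controls. The ratios of the defining homeostatic markers over both regions were 0.04 for the fractalkine receptor Cx3cr1, -0.04 for the purinergic receptor P2ry12 and 0.00 for the membrane protein Tmem119, and 0.03, 0.03 and 0.01 with pair 2 turned. These 3 were themselves near background, well above it in at most 13, 11 and 16 of 24 readings, and the marker Laptm5 in at most 13. Itgam and Ptprc were not tested, since their best probes passed in 2 and 9 readings.

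Among other microglial and macrophage genes, 22 of 41 were measured. Of these, 16 had a ratio above 0, against 50.9% of all kept probes. By limma, 5 had an unadjusted p under 0.05 with a ratio above 0, against 1.33% of all, and 0 an adjusted p under 0.05. The list was drawn up with earlier results of these data known, so these shares describe it and do not test it. The median of the 22 was 0.03. With pair 2 turned, 16 of 22 were again above 0, against 61.8% of all, and the median was 0.02. The count by unadjusted p was not made with pair 2 turned. In the table's direction the highest ratios belonged to secreted and lysosomal proteins: Lyz2, lysozyme, at 1.78 (SE 0.15, adjusted p = 0.0977), Ctss at 0.81 (SE 0.14, adjusted p = 0.921), and the cathepsins Ctsb at 0.32 (SE 0.07) and Ctsd at 0.20 (SE 0.08). Without pair 2 these ratios were 1.59 for Lyz2, 0.74 for Ctss, 0.27 for Ctsb and 0.12 for Ctsd. With pair 2 turned they were 0.35, 0.17, 0.04 and -0.04, so that Ctsd changed sign. Lyz2 and Ctss were above 0 in 6 of 6 pairs as the table directs them and in 4 of 6 when turned.

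Downstream of TREM2 and DAP12, 8 of 20 signalling partners were measured, and 4 were above 0 with a median of 0.01. With pair 2 turned, 5 were above 0 with a median of 0.06. Of all kept probes, 50.9% and 61.8% were above 0 in these directions. Blnk, an adaptor phosphorylated by SYK, had the highest ratio, 0.27 (SE 0.05, adjusted p = 0.921 by limma), with 0.12 in MEC and 0.42 in LEC. Its mean was 0.29 without pair 2 and 0.12 with it turned. Grb2, a general adaptor, was at 0.14 (SE 0.07). Pik3ap1, an adaptor of PI3 kinase, was at -0.13 (SE 0.07) and the phospholipase Plcg1 at -0.10 (SE 0.08). When pair 2 was turned, these 3 were at 0.06, -0.18 and -0.13. Syk itself passed in 12 of 24 readings and was not tested.

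Of complement components and regulators other than C1q, 6 of 17 were measured, 5 were above 0, and the median was 0.05. With pair 2 turned, 3 were above 0 and the median was 0. Of all kept probes, 50.9% and 61.8% were above 0 in these directions. The receptor Cd93 was at 0.10 (SE 0.07), the chaperone Calr, which can bind C1q, at -0.09 (SE 0.09), and C3, the central component, at 0.05 (SE 0.05). When pair 2 was turned, they were at 0.01, 0.02 and -0.05. Of ligands and growth factors, 3 of 6 were measured. Apoe, an apolipoprotein that TREM2 binds, was at 0.21 (SE 0.12), with 0.85 in LEC pair 2 and -0.03 to 0.31 in the other pairs. Its mean was 0.07 without pair 2 and -0.12 with it turned, a change of sign. Il34, a CSF1R ligand made by neurons, was at -0.09 (SE 0.05) and Clu, another apolipoprotein, at 0.04 (SE 0.10), and with pair 2 turned they were at 0.03 and -0.06. None of these passed the test.

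**Figure D5:**
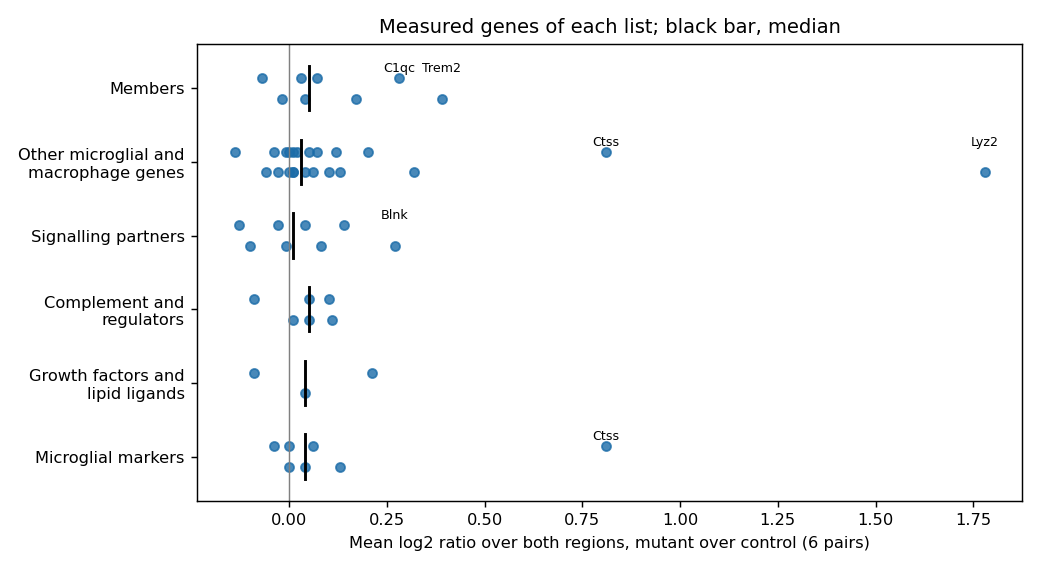
Mean log2 ratio of mutant over control over both regions (6 pairs) for the measured genes of the members, of 4 related lists and of the microglial markers, with the median as a black bar. In the table's direction, medians lie between 0.01 and 0.05, while Lyz2 at 1.78 and Ctss at 0.81 lie far to the right and Trem2 at 0.39 is the highest member.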

How the data were processed

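Per the labels, RNA from laser-captured neurons was amplified, labelled and hybridised to dual-colour arrays. The authors deposited scanner files with raw mean and background intensity per dye, processed intensity and a log10 ratio of the dyes, made by Agilent Feature Extraction (9.5.1.1 per the file headers, 8.5.1.1 per the submitters' processing notes), and a value table of log2 ratios whose centring and direction are unstated. Deposited flags mark saturation and spots well above background. Probe positions are those of build mm8.

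Each table column was matched to a scanner file over 9166 bright spots (absolute correlation at least 0.995, with any other array at most 0.657), and file and direction follow that match. With it, the dye-swapped arrays of all 6 pairs were anticorrelated (-0.483 to -0.783), whereas the names of the LEC files gave 0.0053, -0.10 and -0.29. Using limma 3.58.1 (R 4.3.3; data.table version 1.17.8), intensities were corrected by normexp (offset 50), dyes balanced by loess, and spots and dye-swapped arrays averaged to 6 pair means. Per-extract levels were rebuilt from each array's mean log2 intensity and its ratio, then averaged over both dyes. The fit gave each region its own mean with a shared spread, with two-sided p-values adjusted by Benjamini-Hochberg over the 12987 kept probes. Levels in MEC and LEC were quantile-normalised between arrays. The script was tested on simulated data. Equally numbered pairs of the regions did not deviate together (r = -0.178, -0.00585 and -0.356), so the numbers were not used as pairs. These correlations cannot show whether the regions share mice, and the fit treats the 6 pair means as independent.

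The members and lists were chosen with earlier results of these data known. All member probes are given; of each other list, up to 4 genes with the largest absolute mean ratio are named, plus 5 defining microglial markers, and the 5 genes most correlated with the members. 1 gene that this rule names is not reported here. Alternatives changed direction, files, replicates, background, offset, dye balance, filter, values, unit, spread, probe choice and block.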

Additional observations from a re-analysis of the deposited data

How the results depend on the processing

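The means over both regions of Trem2, Tyrobp and C1qc kept their sign in all 54 combinations of gene and alternative, and none passed the adjusted threshold. Their smallest means came with replicate 2 turned or with files and dyes as labelled. Those 2 settings gave -0.001 each for Tyrobp in MEC, -0.009 and -0.031 for C1qb over both regions, -0.053 and -0.051 for Aif1, -0.039 and -0.041 for Fcer1g, and -0.038 and -0.071 for the MEC minus LEC difference of Trem2. Turning alone gave -0.006 for C1qc in LEC and 0.162 for its MEC minus LEC difference, and files and dyes as labelled gave 0 for Itgax. Without replicate 2 of both regions, the difference of Trem2 was -0.023, the mean of Fcer1g 0, and the level in MEC over LEC 0.003 for C1qc and 0.061 for Aif1. Processed signals gave 0.008 for the difference of Tyrobp. The cause was not tested for any of these sign changes, all among values that did not pass.

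Leaving out each pair in turn gave means over both regions of 0.348 to 0.452 for Trem2, 0.231 to 0.315 for C1qc and 0.144 to 0.197 for Tyrobp. It gave -0.009 to 0.085 for C1qb, -0.069 to 0.021 for Csf1r and -0.118 to 0.007 for Itgax. The MEC minus LEC difference ranged from -0.079 to 0.129 for Trem2 and from -0.083 to 0.023 for Tyrobp, and the level in MEC over LEC from -0.076 to 0.057 for Aif1 and from -0.06 to 0.083 for Fcer1g. Over all kept probes, this left 0 to 1 calls in MEC and over both regions (1 without LEC replicate 2), 0 in LEC and in the difference, and 1953 to 2902 in the level, where 3152 were called with all pairs. The level gave 923 calls without replicate 2 of both regions. Fitting each region alone gave 1 call in MEC, and an offset of 16 gave 1 over both regions. With the 12 arrays as units, which counts dye swaps as replicates, there were 6 calls in MEC, 1 in LEC, 3 over both regions and 5025 in the level, the last with Csf1r (-0.131, adjusted p = 0.045 by limma). A fit with the replicate number as a block gave 0 calls in the 4 ratio comparisons and 2747 in the level, and changed no member's sign. Scan day as a block was not run, since each region had its own day and each array its own slide. Signal over background limits C1qa, Cd68 and the second probes of the other genes.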
